A study of Mus musculus with 8 samples.

Results

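The 10 genes described here belong to the meiotic chromosome programme and were measured in mouse embryonic stem cells that carried a hairpin against Mkrn1: the cohesin subunit genes Smc1b, Stag3 and Rec8, the chromosome axis genes Hormad1 and Hormad2, the synaptonemal complex genes Sycp1, Sycp2 and Sycp3, the double-strand break gene Rec114 and the recombinase gene Dmc1. They are 10 of 19937 genes measured, named by symbol, and each is represented by the probe set of that symbol with the highest mean. They were chosen by their role and with their log2 differences in this same comparison known, among them the higher values of Smc1b and Hormad1 in shMKRN1, so their differences between the groups are given as descriptions. No p-value is given for them, and neither counts of those past the threshold nor their confidence intervals support anything. The groups compared, shGFP and shMKRN1, have 4 arrays each. Both used R1 cells, which are male, derive from 129X1 x 129S1 mouse embryos and were grown on gelatin with LIF and 15% serum. The control cells (shGFP) received 2 µg of pLKO.1 carrying a GFP hairpin, and the knockdown cells (shMKRN1) the same amount of pLKO.1 carrying an MKRN1 hairpin, by transient transfection 48 hours after seeding. Puromycin at 2 µg/mL was then applied to both groups for 4 days, and cells were lysed on day 6, so each sample is the population that survived selection. The labels name 1 hairpin per target. Separate transfections for the 4 arrays of a group are not stated, and the p-values given for other genes therefore cover only the spread among these arrays, which may be technical.

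Cohesin is a ring of SMC proteins closed by a kleisin subunit and bound by a STAG protein, and it holds sister chromatids together. Germ cells entering meiosis exchange several subunits for meiotic forms and build on this cohesin a protein axis along which chromosomes are broken, paired and joined by the synaptonemal complex before DMC1 helps to repair the breaks on the homologous chromosome. In mouse embryonic stem cells many such germ line genes are known to be held low by promoter DNA methylation and by repressor complexes that contain E2F6, which recognises E2F motifs, or MGA and MAX, which recognise E-box motifs.

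RefSeq promoter windows of GRCm38.p6, 250 bases before to 50 after the transcript start, were found for all 10 genes, and they are shown here because 2 short motifs tied to those repressors recur in them. Letters searched on both strands were GCGGGA, the core of an E2F motif, and CACGTG, an E-box that reads the same on both strands; no 2 matches overlapped. The E2F core was present in 8 of the 10 windows (80%), against 20% of all 32851 RefSeq windows and 27.7% of the 15562 windows of genes on the array. The E-box was present in 5 of the 10 (50%), against 7.15% and 8.4%. Windows were found for 56 of the 75 measured genes from 6 other lists of meiosis and cohesin genes. Of these windows, 50% held the E2F core and 14.3% the E-box. For the 729 genes higher in shMKRN1 at a limma adjusted p under 0.05, 585 windows were found. Their shares were 33.2% and 9.57%. These shares are a description of the letters, and a match is not a binding site. In the windows below the matches are in capitals, and each is written 5′ to 3′ on the strand of the gene. The Smc1b window lies at chr15:85131908-85132207 (minus strand), that of Stag3 at chr5:138280259-138280558 (plus strand), that of Hormad1 at chr3:95559427-95559726 (plus strand), that of Rec114 at chr9:58741510-58741809 (minus strand), that of Hormad2 at chr11:4441033-4441332 (minus strand) and that of Sycp1 at chr3:102936051-102936350 (minus strand). The first 4 belong to genes that were higher in shMKRN1 and hold a match. Hormad2 was higher and holds none, and Sycp1 holds both motifs while its groups overlapped.
Smc1b: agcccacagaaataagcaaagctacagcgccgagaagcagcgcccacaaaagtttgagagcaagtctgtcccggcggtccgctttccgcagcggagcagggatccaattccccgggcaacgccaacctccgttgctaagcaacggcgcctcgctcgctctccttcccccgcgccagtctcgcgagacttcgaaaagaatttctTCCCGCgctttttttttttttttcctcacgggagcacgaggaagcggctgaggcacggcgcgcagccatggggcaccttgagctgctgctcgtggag
Stag3: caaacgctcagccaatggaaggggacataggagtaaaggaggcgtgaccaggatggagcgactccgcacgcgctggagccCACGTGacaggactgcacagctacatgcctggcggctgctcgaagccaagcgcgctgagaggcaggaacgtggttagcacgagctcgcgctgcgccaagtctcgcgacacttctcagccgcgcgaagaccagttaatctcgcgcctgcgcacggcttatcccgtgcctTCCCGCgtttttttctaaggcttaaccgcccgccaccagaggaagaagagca
Hormad1: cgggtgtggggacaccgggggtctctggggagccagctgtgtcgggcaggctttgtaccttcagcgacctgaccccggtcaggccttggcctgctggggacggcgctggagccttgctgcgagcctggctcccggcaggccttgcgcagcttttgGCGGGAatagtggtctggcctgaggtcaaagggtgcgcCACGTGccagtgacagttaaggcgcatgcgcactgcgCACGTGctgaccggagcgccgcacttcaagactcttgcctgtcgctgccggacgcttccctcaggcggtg
Rec114: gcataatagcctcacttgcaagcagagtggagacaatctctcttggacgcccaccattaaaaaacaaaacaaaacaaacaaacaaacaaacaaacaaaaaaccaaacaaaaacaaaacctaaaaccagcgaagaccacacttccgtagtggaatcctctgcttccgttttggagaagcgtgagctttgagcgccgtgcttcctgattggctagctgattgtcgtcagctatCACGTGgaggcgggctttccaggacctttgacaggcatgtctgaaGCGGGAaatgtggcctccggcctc
Hormad2: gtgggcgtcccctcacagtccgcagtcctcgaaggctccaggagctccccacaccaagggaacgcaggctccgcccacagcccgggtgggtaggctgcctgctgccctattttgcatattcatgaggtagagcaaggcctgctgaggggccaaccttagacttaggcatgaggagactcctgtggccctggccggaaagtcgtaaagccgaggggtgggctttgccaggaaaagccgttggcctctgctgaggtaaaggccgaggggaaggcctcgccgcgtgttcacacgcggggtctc
Sycp1: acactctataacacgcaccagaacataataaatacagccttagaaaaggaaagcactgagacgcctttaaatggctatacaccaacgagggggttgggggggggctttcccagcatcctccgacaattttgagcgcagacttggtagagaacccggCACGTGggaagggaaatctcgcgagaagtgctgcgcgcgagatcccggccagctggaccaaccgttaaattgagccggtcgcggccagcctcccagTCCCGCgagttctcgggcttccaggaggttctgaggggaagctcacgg
The E2F core began 47 bases before the transcript start in Smc1b, 95 before it in Hormad1 and 38 before it in Rec8. In Stag3 it began 2 bases before the start and in Sycp1 2 bases after it. Dmc1 held 2 cores, at 240 and 13 bases before the start, and Sycp3 held 1 core and 2 E-boxes, at 147, 64 and 43 bases before it. Both motifs were absent from the windows of Hormad2 and Sycp2. CpG dinucleotides reached 1.08 times the number expected from the base composition in Smc1b and 1.06 times in Stag3, higher than in 96.3% and 95.4% of the windows of measured genes. The other 8 windows lay between 0.363 (Sycp2) and 0.874 (Sycp1), and Rec8 and Hormad1 had nearly the same value (0.716 and 0.713). Windows that hold the E2F core thus belong both to genes whose groups did not overlap and to genes whose groups did.

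**Figure D1:**
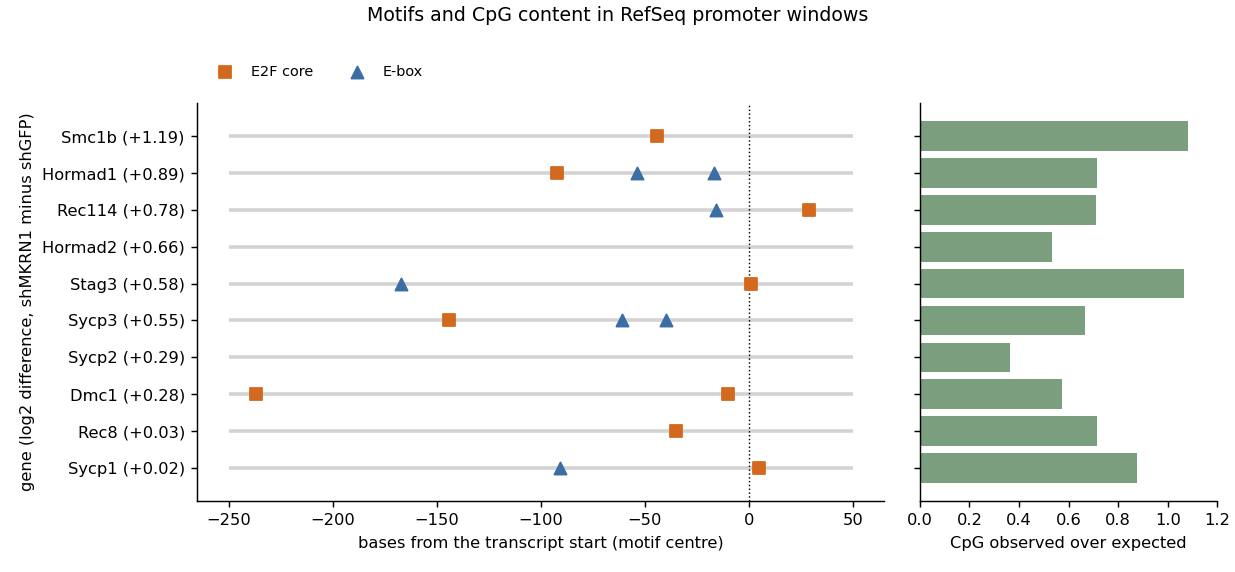
Positions of the E2F core (squares) and the E-box (triangles) in the promoter window of each of the 10 genes, in bases from the transcript start, with the ratio of observed to expected CpG dinucleotides as bars; genes are ordered by their log2 difference, given in brackets. Smc1b at the top and Rec8 and Sycp1 at the bottom all hold an E2F core, while Hormad2 and Sycp2 hold neither motif.

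Levels are log2 values from RMA, a method that corrects background, equalises the distributions of the arrays and combines probes into 1 value per probe set, so a difference of 1 is a 2-fold difference. Array medians lay between 7.14 and 7.24, and Pearson correlations between arrays across probe sets, which are not independent replicates, between 0.988 and 0.996. On the leading principal component, with 37.6% of the variance, shGFP 7 lay at 23.2 and shMKRN1 8 at 7.46, each apart from its group (-3.45 to 6.2 and -15.2 to -6.02). The targeted gene Mkrn1 stood at 66.2% of its control level in shMKRN1 (log2 difference -0.60, SE 0.052; limma adjusted p = 0.000767). Markers of embryonic stem cells were present throughout: the 8 listed markers averaged 11.42 to 11.52 over the shGFP arrays and 11.46 to 11.53 over the shMKRN1 arrays, and Nanog alone of them passed the threshold (0.25 higher). As a measure of background, 95% of 1194 olfactory and vomeronasal receptor genes, which stem cells do not use, lay below 6.53 in shGFP and 6.52 in shMKRN1. This range of silent genes is a guide only, since a level also depends on the probes.

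All 10 genes had a higher mean in shMKRN1, as had 52.8% of all genes. For 6 of them the lowest shMKRN1 array lay above the highest shGFP array, and the other 4 had overlapping groups. Of all genes, 10.6% had groups that did not overlap with shMKRN1 higher. The same 6 genes, Smc1b, Stag3, Hormad1, Hormad2, Rec114 and Dmc1, passed an adjusted p of 0.05 in the limma fit over all genes, all in the higher direction, against 3.66% of all genes in that direction and 4.49% in either, and none was lower. Because this comparison was known when the genes were chosen, nothing is read from these counts. The median difference of the 10 genes was 0.57, and that of all genes 0.01. Among them 4 were at least 1.5-fold higher (Smc1b, Hormad1, Rec114 and Hormad2), as were 0.421% of all genes, and nothing is read from this count either. In these bulk samples more cells with a transcript and more transcript per cell cannot be told apart.

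**Figure D2:**
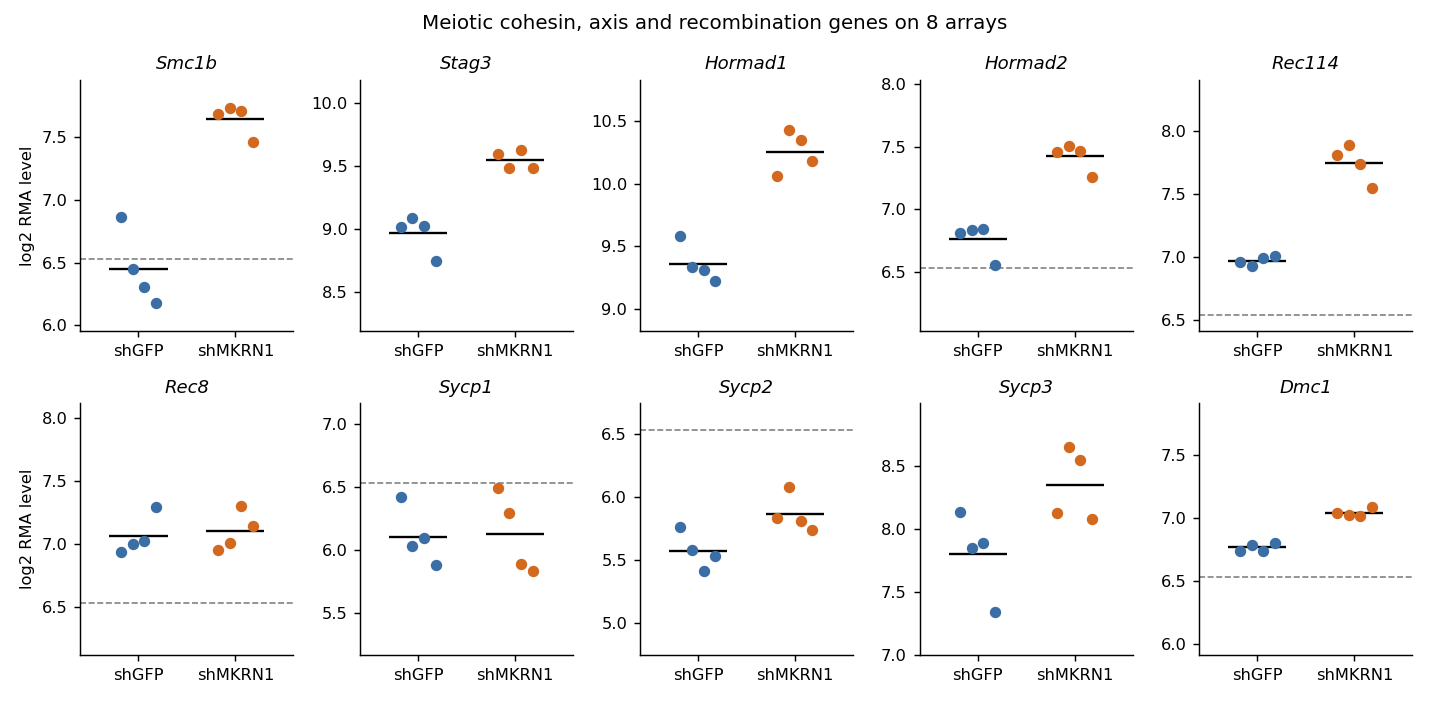
Log2 RMA level of each of the 10 genes on each array (points) with the group mean (bar), 4 shGFP arrays in blue and 4 shMKRN1 arrays in orange; every panel spans 2 log2 units, and the dashed line marks 6.53, the upper end of 95% of silent receptor genes in shGFP. The groups are separate for Smc1b, Stag3, Hormad1, Hormad2, Rec114 and Dmc1 and overlap for Rec8, Sycp1, Sycp2 and Sycp3.

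Smc1b (Entrez 140557, chromosome 15) encodes the meiotic form of the SMC1 arm of cohesin, and it showed the largest difference of the 10 genes. Its log2 level was 6.86, 6.45, 6.31 and 6.18 in shGFP 1, 3, 5 and 7, and 7.68, 7.73, 7.70 and 7.46 in shMKRN1 2, 4, 6 and 8. The lowest knockdown array lay 0.60 above the highest control array, and the control mean of 6.45 ± 0.295 lay within the range of silent genes while the knockdown mean of 7.64 ± 0.126 (SD, n = 4 each) did not. The fitted difference was 1.19 (SE 0.13, 95% confidence interval 0.90 to 1.49), or 2.29-fold. Since the control level cannot be told from background, this fold may understate the true ratio. Smc1a, the form used by all dividing cells, had values of 9.78, 9.90, 10.10 and 9.84 in shGFP and 10.05, 10.03, 9.93 and 10.04 in shMKRN1. Its groups overlapped and its difference of 0.11 (SE 0.071; limma adjusted p = 0.448) did not pass, with a 95% confidence interval of -0.05 to 0.27.

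Stag3 (Entrez 50878, chromosome 5), the meiotic STAG subunit, was well above the range of silent genes in both groups. It measured 9.01, 9.09, 9.02 and 8.74 in shGFP 1, 3, 5 and 7 and 9.59, 9.49, 9.63 and 9.49 in shMKRN1 2, 4, 6 and 8. The shMKRN1 arrays spanned only 0.14 and all lay above the controls, of which shGFP 7 was the lowest. The difference was 0.58 (SE 0.078, 95% confidence interval 0.41 to 0.76), or 1.497-fold. The mitotic forms had differences of -0.04 (Stag1, SE 0.075; limma adjusted p = 0.845) and -0.07 (Stag2, SE 0.11; limma adjusted p = 0.786), with intervals of -0.20 to 0.13 and -0.33 to 0.18.

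Rec8 (Entrez 56739, chromosome 14), the meiotic kleisin that closes the ring, showed no such difference. It measured 6.94, 7.0, 7.02 and 7.29 in shGFP 1, 3, 5 and 7 and 6.95, 7.01, 7.30 and 7.14 in shMKRN1 2, 4, 6 and 8. The highest array of each group stood at nearly the same level, and the groups overlapped almost fully. The difference was 0.03 (SE 0.096) with a 95% confidence interval of -0.18 to 0.25. Rad21l, a further meiotic kleisin that is not among the 10, lay within the range of silent genes in both groups (4.97 and 5.22). Its difference of 0.25 (SE 0.072, 95% confidence interval 0.09 to 0.41) did not pass (limma adjusted p = 0.0853). Rad21, the kleisin of dividing cells, differed by -0.03 (SE 0.044; limma adjusted p = 0.759), and Smc3, which mitotic and meiotic cohesin share, by 0.08 (SE 0.065; limma adjusted p = 0.577). Differences between these subunits were not tested.

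**Figure D3:**
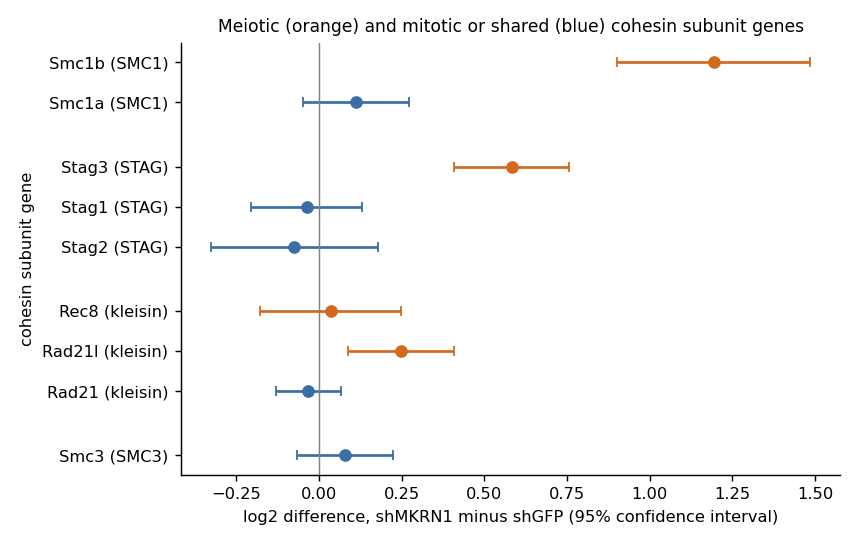
Log2 difference between shMKRN1 and shGFP for cohesin subunit genes, with 95% confidence intervals from the limma fit of 4 against 4 arrays; meiotic forms are orange, mitotic or shared forms blue. Smc1b (1.19) and Stag3 (0.58) lie to the right of their mitotic counterparts, whose intervals include 0, as does that of Rec8. Rad21l (0.25), within the range of silent genes in both groups, has an interval above 0 but did not pass the adjusted threshold.

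Both HORMA-domain genes, whose proteins load on unsynapsed chromosome axes and take part in checkpoint signalling, were higher. Hormad1 (Entrez 67981, chromosome 3) measured 9.58, 9.33, 9.31 and 9.23 in shGFP 1, 3, 5 and 7 and 10.06, 10.43, 10.35 and 10.18 in shMKRN1 2, 4, 6 and 8. No arrays overlapped, with a gap of 0.47 between the groups and ranges of 0.36 and 0.37 within them. The difference was 0.89 (SE 0.098, 95% confidence interval 0.67 to 1.11), or 1.85-fold. A further probe set with the Hormad1 symbol, which the choice of the highest mean left out, moved the same way, from 6.24 ± 0.487 to 7.71 ± 0.286 (SD, n = 4 each; difference 1.47, SE 0.24). The 2 probe sets gave different sizes, and whether they share sequence or report the same locus was not tested.

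Hormad2 (Entrez 75828, chromosome 11) measured 6.81, 6.83, 6.85 and 6.56 in shGFP 1, 3, 5 and 7 and 7.46, 7.50, 7.46 and 7.26 in shMKRN1 2, 4, 6 and 8. In each group 3 arrays agreed within 0.05 and the fourth, shGFP 7 or shMKRN1 8, was lower, and the groups did not overlap. The difference was 0.66 (SE 0.080, 95% confidence interval 0.48 to 0.84), or 1.58-fold, from a control level just above the range of silent genes.

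Rec114 (Entrez 73673, chromosome 9), whose product works with MEI4 and IHO1 to allow SPO11 to break DNA, was nearly constant among controls. It measured 6.96, 6.93, 6.99 and 7.0 in shGFP 1, 3, 5 and 7 and 7.81, 7.89, 7.74 and 7.55 in shMKRN1 2, 4, 6 and 8. The lowest knockdown array, shMKRN1 8, was still 0.55 above the highest control, and the difference was 0.78 (SE 0.071, 95% confidence interval 0.62 to 0.93), or 1.71-fold. Its partners did not pass the test. Mei4 differed by -0.01 (limma adjusted p = 0.956), Iho1 by 0.09 (limma adjusted p = 0.472) and Spo11, within the range of silent genes in both groups, by -0.02 (limma adjusted p = 0.916); Mei4 and Spo11 were picked after their values were seen.

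The 3 synaptonemal complex genes had overlapping groups. Sycp3 (Entrez 20962, chromosome 10), a protein of the axial and lateral elements, measured 8.14, 7.85, 7.89 and 7.34 in shGFP 1, 3, 5 and 7 and 8.13, 8.65, 8.55 and 8.08 in shMKRN1 2, 4, 6 and 8. The overlap came from shGFP 1, which lay above shMKRN1 2 and 8, and the spread of 0.79 among controls was the widest of the 10 genes. Its difference was 0.55 (SE 0.18, 95% confidence interval 0.15 to 0.94). Sycp2 (Entrez 320558, chromosome 2), the partner of SYCP3 in the axis, measured 5.76, 5.58, 5.41 and 5.54 in shGFP and 5.83, 6.08, 5.81 and 5.74 in shMKRN1, overlapping by 0.02 between shGFP 1 and shMKRN1 8. Both means, 5.57 and 5.87, lay within the range of silent genes, so the difference of 0.29 (SE 0.091) is not read as expression. Sycp1 (Entrez 20957, chromosome 3), the transverse filament that zips paired axes together, measured 6.42, 6.03, 6.09 and 5.88 in shGFP and 6.50, 6.30, 5.89 and 5.84 in shMKRN1. It too lay within that range in both groups, with a difference of 0.02 (SE 0.16) and a 95% confidence interval of -0.33 to 0.38.

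Dmc1 (Entrez 13404, chromosome 15), the meiotic recombinase gene, had a small difference and the tightest replicates. It measured 6.74, 6.78, 6.74 and 6.80 in shGFP 1, 3, 5 and 7 and 7.04, 7.03, 7.02 and 7.09 in shMKRN1 2, 4, 6 and 8. All knockdown arrays lay at least 0.22 above the controls, more than 3 times the range within either group (0.06 and 0.07). The difference was 0.28 (SE 0.046, 95% confidence interval 0.18 to 0.38), or 1.21-fold, close above the range of silent genes.

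Averaged over the 10 genes, the level relative to the shGFP mean of each gene was 0.14, 0.01, -0.02 and -0.13 in shGFP 1, 3, 5 and 7 and 0.52, 0.63, 0.56 and 0.40 in shMKRN1 2, 4, 6 and 8. In every shMKRN1 array 9 of the 10 genes lay above their shGFP mean. The arrays that stood apart on the leading component were also the low ones here: shGFP 7 was the lowest control for 6 of the 10 genes and shMKRN1 8 the lowest knockdown array for 6, against 32% and 34.3% of all genes. What part this has in the levels was not tested. Without both arrays the median difference of the 10 genes was 0.51, against 0.57 with them. Over the 8 arrays, which share the step between the groups, Smc1b correlated with Hormad1 at r = 0.98 and Stag3 with Hormad2 at 0.98, while Rec8 and Sycp1 ran against each other (-0.82). After the group means were removed, r was 0.74 for Smc1b and Hormad1 and 0.79 for Stag3 and Hormad2, whereas Dmc1 ran against Hormad2 (-0.81). Other pairs ranged widely: r was 0.88 for Hormad1 and Sycp3, 0.19 for Hormad1 and Rec114 and -0.09 for Stag3 and Rec114. The named pairs were picked after their values were seen, and each r describes 8 arrays only.

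**Figure D4:**
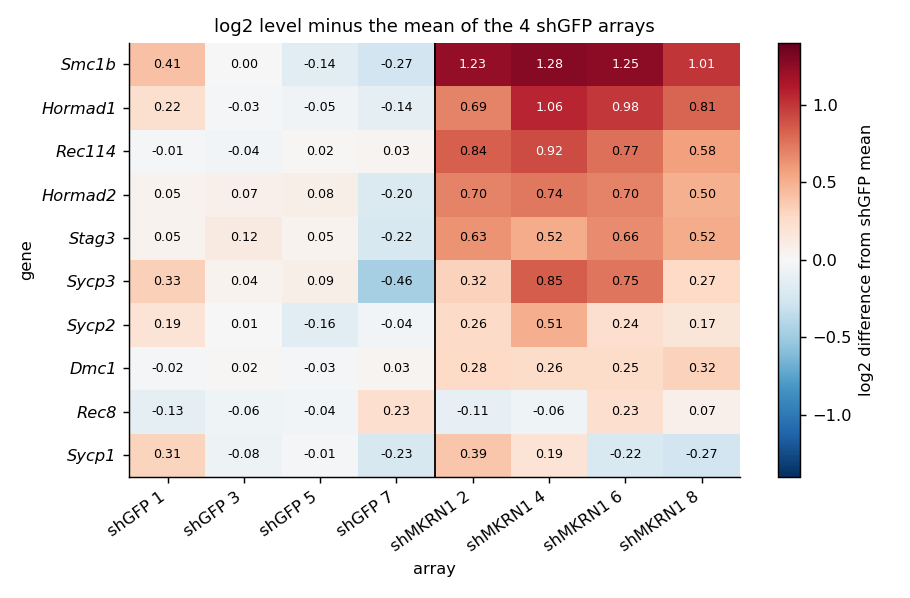
Log2 level of each of the 10 genes on each array minus the mean of that gene over the 4 shGFP arrays, with genes ordered by their difference and the groups divided by a line. The Smc1b row is the strongest in shMKRN1, Rec8 and Sycp1 change sign within both groups, and shGFP 7 and shMKRN1 8 are paler or bluer than their neighbours for most genes.

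Around the 10 genes, 6 lists of other meiosis and cohesin genes held 88 genes, of which 75 were measured. Of these, 5 rose by limma at an adjusted p of 0.05 and none fell, against 3.66% of all genes higher and 0.838% lower. Terb2, which ties meiotic telomeres to the nuclear envelope, measured 6.87, 6.70, 6.76 and 6.84 in shGFP 1, 3, 5 and 7 and 7.30, 7.32, 7.31 and 7.10 in shMKRN1 2, 4, 6 and 8. Its groups did not overlap, and it rose by 0.47 (SE 0.066; limma adjusted p = 0.00523). Of 13 further cohesin, axis and synaptonemal complex genes measured, only Terb2 passed (median 0.16, 11 of 13 means higher). An unadjusted p under 0.05 was found for 7 of the 13, all higher. The partner genes Terb1 (0.16) and Majin (0.14), picked after their values were seen, did not pass. The share of all genes with an unadjusted p under 0.05 is not given here. No unadjusted count for a list or for the chromosomal neighbours is therefore read as a result.

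Of 14 crossover genes, 2 rose and none fell (median 0.07; 5 with an unadjusted p under 0.05, 4 of them higher). Shoc1, a factor of crossover intermediates, rose by 0.58 (SE 0.078; limma adjusted p = 0.00445) and Tex11, an X-linked gene of that pathway, by 0.46 (SE 0.083; limma adjusted p = 0.015). Both lay within the range of silent genes in both groups (4.92 and 5.50 for Shoc1, 5.79 and 6.26 for Tex11), so these changes are near background. Of 18 genes of strand exchange and recombinase loading, Tex15, needed for recombination in male meiosis, rose by 0.44 (SE 0.088; limma adjusted p = 0.0246), with no other call and a median of 0.09. In that list 8 had an unadjusted p under 0.05, of which 7 were higher. Of 7 meiotic entry genes, Meioc, which helps to sustain the meiotic programme, rose by 0.49 (SE 0.11; limma adjusted p = 0.0381; list median 0.04), and 3 of the 7 had an unadjusted p under 0.05, 2 of them higher. The calls of Tex15 and Meioc were each lost when 1 array was left out, for 5 of the 8 arrays (shGFP 1 and 3, shMKRN1 2, 4 and 6; adjusted p up to 0.0831 and 0.116), and that of Tex11 without shGFP 3 (0.0523).

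Other lists held no call, which in lists this short is near the 4.49% of all genes called in either direction. Among 16 cohesin subunits and regulators of all dividing cells, limma called 0 and 0 had an unadjusted p under 0.05. Their differences lay between -0.11 and 0.11 (median -0.01), and those with the smallest p were Espl1, the protease that opens cohesin at anaphase (0.08; limma adjusted p = 0.396), and Smc1a. Among 7 genes of break formation limma also called 0, and 0 had an unadjusted p under 0.05 (differences -0.08 to 0.12, median -0.01), the smallest p belonging to Zcwpw1, a reader of histone marks at break sites (0.12; limma adjusted p = 0.425), and Iho1.

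**Figure D5:**
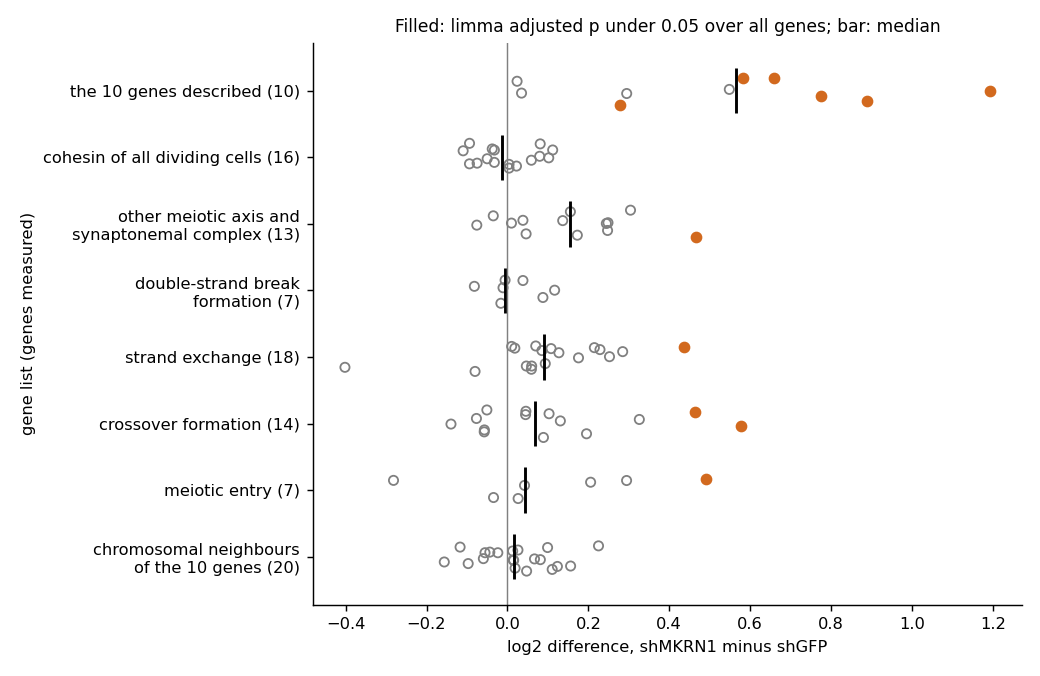
Log2 difference between shMKRN1 and shGFP for the 10 genes, the 6 lists of other genes and the chromosomal neighbours, 1 point per gene; filled points passed a limma adjusted p of 0.05 over 19937 genes and bars mark medians. The 10 genes, chosen with these values known, have a median of 0.57, and the medians of the other rows lie between -0.01 and 0.16.

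No gene beside them on the chromosome passed the test. The nearest measured gene on each side was taken from the RefSeq gene order, which gave 20 genes. Limma called 0 of the 20, which for so few genes is near the 4.49% of all genes called in either direction. An unadjusted p under 0.05 was found for 1, Chpt1 beside Sycp3, picked after its value was seen (0.23 higher, SE 0.085, limma adjusted p = 0.174). Differences ran from -0.16 to 0.23 with a median of 0.02. Beside Smc1b, Fam118a differed by 0.11 and Ribc2 by -0.12; beside Hormad1, Ctss differed by -0.16 and Golph3l by 0.01; all 4 had overlapping groups and were picked to stand beside the 2 largest differences.

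Markers of other cells were set beside these values. Of 12 germ cell markers, 1 rose and none fell, against 3.66% of all genes higher and 0.838% lower. The 1 that rose was the testis lactate dehydrogenase gene Ldhc (0.34, SE 0.075, limma adjusted p = 0.0327). An unadjusted p under 0.05 was found for 4 of the 12, of which 3 were higher. The germ cell helicase gene Ddx4 had means of 8.95 (shGFP) and 8.87 (shMKRN1; limma adjusted p = 0.782), and 4 of the 12, among them the spermatid gene Tnp1, lay within the range of silent genes in both groups. The markers averaged 6.77 to 6.90 over the shGFP arrays and 6.83 to 6.94 over the shMKRN1 arrays. Of 9 fibroblast markers, Col1a1 (0.37) and Pdgfrb (0.35) rose, with limma adjusted p-values of 0.0486 and 0.0342, and none fell. No other fibroblast marker had an unadjusted p under 0.05. That list averaged 6.85 to 6.96 in shGFP and 6.89 to 7.11 in shMKRN1, with Lum and Postn within the range of silent genes. The part of such cells in the levels of the meiotic genes was not tested.

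The genes whose pattern over the 8 arrays was most like the mean of the 10 were Vps11, Eif5, Snx1, Mks1, Slc38a4 and Ccdc114, with Pearson's r between 0.989 and 0.996 among 9728 genes above the median level (predicted and clone-named genes left out). Snx1, a sorting nexin gene, had means of 8.44 ± 0.138 (shGFP) and 9.02 ± 0.107 (shMKRN1; SD, n = 4 each). Eif5, a translation initiation factor gene, measured 11.89 ± 0.0316 and 12.05 ± 0.0357. An r above 0.9, a looser cut than the r of these 6, was found for 5.36% of those genes. The step between the groups enters each such r. After the group means were removed, r with the mean of the 10 ran from 0.910 (Mks1) to 0.973 (Vps11) among the 6. They were picked as the highest of the 9728, so these values are descriptions.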

How the data were processed

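Total RNA of 8 samples was measured on Affymetrix gene arrays, 4 per hairpin, and samples were grouped by the hairpin in their titles, whose numbers serve as names. The authors deposited a log2 value for each of 34760 probe sets. The submitters' processing notes name RMA, without a version. With arrays there is no read depth, and their number limits the precision. Probe sets near background understate changes. Of the probe sets, 21640 had 1 gene symbol in the platform annotation, 1321 had several and 11799 were not named here; the row with the highest mean was kept for each of 19937 symbols.

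Differences were fitted for all genes with limma 3.58.1 in R 4.3.3 (lmFit, eBayes, no filter), two-sided, with Benjamini-Hochberg adjustment and a threshold of 0.05. The fit was tested on simulated data. The members, lists and tests were chosen with earlier results of these data known. Genes named outside the members were those past the threshold in a list or, where none passed, the 2 with the smallest p, the mitotic counterparts, neighbours past the threshold and the 6 most alike; exceptions are marked. List symbols were matched through RefSeq synonyms, and 13 of 88 were not analysed here. Promoters and gene order came from RefSeq (GRCm38.p6). Alternatives were scalings, a level filter, array weights, another variance prior, other handling of probe sets and leaving out arrays.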

Additional observations from a re-analysis of the deposited data

Results flagged for a closer look

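In 2 of the 20 groups of 4 arrays examined (10 genes, 2 groups each) a single array lay far from the others, where chance gives about 1 in 20. Smc1b was lower in shMKRN1 8 (7.46) than in the other shMKRN1 arrays (7.68 to 7.73), and its gap made up 0.843 of the range of the group. Hormad2 was lower in shGFP 7 (6.56) than in the other shGFP arrays (6.81 to 6.85), with a ratio of 0.866. These are the same 2 arrays that stood apart on the leading principal component. The difference of Smc1b was 1.26 without shMKRN1 8, and that of Hormad2 was 0.59 without shGFP 7.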

How the results depend on the processing

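The members were chosen with this difference known, so their counts support nothing: the 6 past the threshold were also past it under both scalings (quantile normalization and median centring), array weights, a trended robust prior, both other treatments of probe sets, without any 1 array and without shGFP 7 and shMKRN1 8 together, an alternative chosen after seeing the data. With only genes above the median level, 3 members were tested and 2 passed. Array weights added Sycp2 and Sycp3. The difference of Hormad1 was 1.18 with the mean of the 2 probe sets of that symbol, and that of Dmc1 0.31 with quantile normalization. The median difference of the members ran from 0.45 to 0.63 when 1 array was left out. Calls among further axis genes numbered 2 under either scaling and without both arrays and 5 with array weights. Above the median level 6 of the 13 were tested, Terb2 not among them, and 0 passed. Calls among strand exchange genes numbered 2 under either scaling and above the median level, 6 with array weights, 3 with the trended robust prior and without both arrays, 0 with every probe set adjusted, and 0 to 2 without 1 array; 1 of these calls was lower with array weights, without both arrays and without shGFP 7, and all others were higher. Crossover calls numbered 0 above the median level and 1 to 2 without 1 array (1 without shGFP 3). That level filter tested only 6 of the 14 crossover genes and left out Shoc1 and Tex11. It tested 13 of the 18 strand exchange genes and left out Tex15. Meiotic entry calls numbered 3 with array weights, 2 without both arrays, 0 with every probe set adjusted and 0 to 1 without 1 array. Array weights called 1 neighbour. Of the 6 genes most alike, 3 were shared with a ranking by Spearman's rho. The E2F core was in 27.7% and the E-box in 8.4% of windows of measured genes. Terb2 and Shoc1 kept their calls in the 15 alternatives that tested them (not the level filter); Tex15 and Meioc lost them in 6 settings each and Tex11 in 1. Over all genes, 896 calls (729 higher) became 1096 (806 higher) with quantile normalization, 1000 (875 higher) with median centring, 2757 with array weights, 1549 with the trended robust prior, 378 with every probe set adjusted, 1595 above the median level and 309 to 852 without 1 array. The causes of these shifts were not tested. The labels state no pairing of arrays, and no paired analysis was run. Array numbers alternate between the groups, and shGFP 7 and shMKRN1 8, which stood apart, are consecutive. Whether consecutive arrays were processed together is not stated, and its part in the levels was not tested. Signal close to background limits Sycp1, Sycp2, Shoc1, Tex11 and the control level of Smc1b.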
